A study of Mus musculus with 11 samples.

Results

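The genes described here build and load major histocompatibility complex (MHC) class I molecules in mouse skin. They are 10 named genes (H2-K1, H2-D1, H2-T23, H2-Q4, H2-Q7, B2m, Tap1, Tap2, Tapbp and Nlrc5), taken by symbol from a table of read counts for 49315 genes, and all 10 were among the 18375 genes with enough reads to be tested. The table holds whole skin from 11 neonatal Foxp3-DTR mice, 1 library a mouse, sequenced in bulk. Foxp3-DTR mice carry the diphtheria toxin (DT) receptor under the promoter of Foxp3, the gene that defines regulatory T cells (Tregs), so that DT kills these cells. All groups share this genotype. The 2 control mice were labelled PBS, and 3 mice formed each of the ΔETreg (EarlyDT), ΔLTreg (LateDT) and ΔTreg (FullDT) groups. By the study's methods each injection held 30 ng DT per g of body weight. ΔETreg mice received it on postnatal days 6 and 8 and were sampled on day 9. ΔLTreg mice received it on days 10 and 12 and ΔTreg mice on days 6, 8, 10 and 12, and both were sampled on day 13. The study calls the groups it compared age-matched, but the labels put both control mice in 1 group with no sampling day. Which DT mice they match in age is not given there, so age and depletion cannot be told apart in comparisons with them.

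A class I molecule is a heavy chain held together with β2-microglobulin and a short peptide, and almost every nucleated cell displays it at its surface for CD8 T cells and natural killer cells to read. Peptides are cut by the proteasome, pumped into the endoplasmic reticulum by the TAP transporter and fitted to the heavy chain with the help of tapasin. Interferons raise the transcription of most of these genes, largely through IRF1 and the class I transactivator NLRC5, and keratinocytes are known to answer interferon-γ in this way.

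Of the 10 genes, 8 lie in the H2 region of chromosome 17 of GRCm38, between Tapbp, whose gene model begins at 33915899, and H2-T23, whose model ends at 36032855. B2m is on chromosome 2 (122147686 to 122153083) and Nlrc5 on chromosome 8 (94434356 to 94527272). RefSeq promoter windows, 250 bases before to 50 after a start site, were at hand for 8 of the 10 genes, all but Tap2 and Nlrc5. A κB site, the kind of sequence NF-κB binds, was found on either strand in the windows of 5 of the 8 genes, against 4.51% of 32851 windows of mouse genes. The core of an interferon response element, AANNGAAA with N for any base, was found in 6 of the 8, against 23.9%. TGACG, the core of a cyclic AMP response element (CRE), was found in 6 of 8, against 20.8%, and CCAAT in 8 of 8, against 37.4%. GAAANNGAA, a longer interferon-stimulated response element that can overlap the core, was in 2 of 8 (8.56% of all windows), and TTCNNNGAA, the interferon-γ-activated site, in 0 of 8 (8.3%). A match is a string of letters and not a binding site. The stretches below are shown because 4 of the 5 heavy chain genes carry the κB match and the interferon core in 1 arrangement and B2m carries them in another. They read 5′ to 3′ on the gene's strand, with the κB, interferon core and CRE matches in capitals. In these 4 genes the κB match comes first, then the interferon core on the opposite strand, then, where it is shown, the CRE core. In B2m the interferon core comes first.

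H2-K1: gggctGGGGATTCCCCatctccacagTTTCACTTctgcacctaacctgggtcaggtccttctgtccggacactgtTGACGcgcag
H2-D1: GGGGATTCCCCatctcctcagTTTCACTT
H2-Q4: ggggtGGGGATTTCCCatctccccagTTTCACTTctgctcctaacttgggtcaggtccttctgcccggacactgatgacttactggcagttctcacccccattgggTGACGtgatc
H2-Q7: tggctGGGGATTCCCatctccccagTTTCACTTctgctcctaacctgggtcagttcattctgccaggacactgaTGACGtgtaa
B2m: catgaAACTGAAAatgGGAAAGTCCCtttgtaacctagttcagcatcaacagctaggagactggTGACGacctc

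These stretches lie at chr17:34000379-34000463 on the minus strand for H2-K1, and on the plus strand at chr17:35262923-35262951 for H2-D1, chr17:35379438-35379553 for H2-Q4, chr17:35439017-35439100 for H2-Q7 and chr2:122147545-122147618 for B2m (GRCm38.p6). All end before the RefSeq start site. That of H2-D1 also falls inside an exon of a longer GENCODE transcript, so only the 2 matches and the bases between them are shown. From the first base of the κB match to that of the interferon core there were 21 bases in H2-K1, H2-D1 and H2-Q4 and 20 in H2-Q7. Over the 60 bases around the interferon core, aligned without gaps, H2-K1 and H2-D1 were identical at 59 positions, while H2-K1 and H2-Q7 shared 49. The window of the fifth heavy chain gene, H2-T23, held the interferon core at 2 positions but neither a κB match nor the CRE core. Those of Tap1 and Tapbp held neither a κB match nor the interferon core.

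Total counts ranged from 23377571 to 34159435 a library. Foxp3 was counted 14 to 20 times in control, 10 to 16 in ΔETreg, 13 to 23 in ΔLTreg and 9 to 19 times in ΔTreg libraries, and it did not pass the test in any comparison with control (lowest adjusted p = 0.546, edgeR), so at these counts its transcript does not check the labelled depletion, and groups are named as the labels give them. The study measured Treg percentages by flow cytometry at both ages, which were not analysed here. Keratinocyte markers summed to 10569.9 to 14844 CPM (read counts scaled to a common library size) and fibroblast markers to 8358 to 24172 CPM over the 11 libraries, while B cell markers stayed under 1 CPM. Replicates are separate mice. Library 3 of the ΔLTreg group stood apart: its muscle markers summed to 3697 CPM, the highest of all libraries, and its pan-leukocyte markers to 66.1 CPM, the lowest. It was also the lowest of its group for each of the 10 genes, and control mouse 1 was above control mouse 2 for all 10.

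Skin of mice given both DT courses held more RNA of the whole group. All 10 genes rose in ΔTreg against control skin, by 3.84-fold (Tapbp) to 66.8-fold (H2-Q7), and the median member rose 7.555-fold (median log2 fold change 2.92, against -0.01 over all genes tested). A gene is said to have risen or fallen here where its adjusted p was under 0.05 in edgeR's quasi-likelihood test, fitted to all 11 libraries and adjusted over all genes tested. By that rule 12.1% of genes rose in ΔTreg skin. In ΔLTreg skin 8 of the 10 rose, with a median of 1.86-fold, against 1.86% of all genes. In ΔETreg skin none of the 10 passed, and 0.00544% of all genes, a single gene, passed in either direction. There the 10 fold changes had a median of 1.08 and 1 of the 10, H2-Q7, had an unadjusted p under 0.05, as did 4.75% of all genes. Together the 10 genes took 0.077% to 0.0876% of all reads counted in control skin. That share was 0.0909% to 0.0919% with early depletion, 0.117% to 0.172% with late depletion and 0.535% to 0.584% with both. In bulk skin, more RNA of a gene per cell and more cells that express it cannot be told apart.

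**Figure D1:**
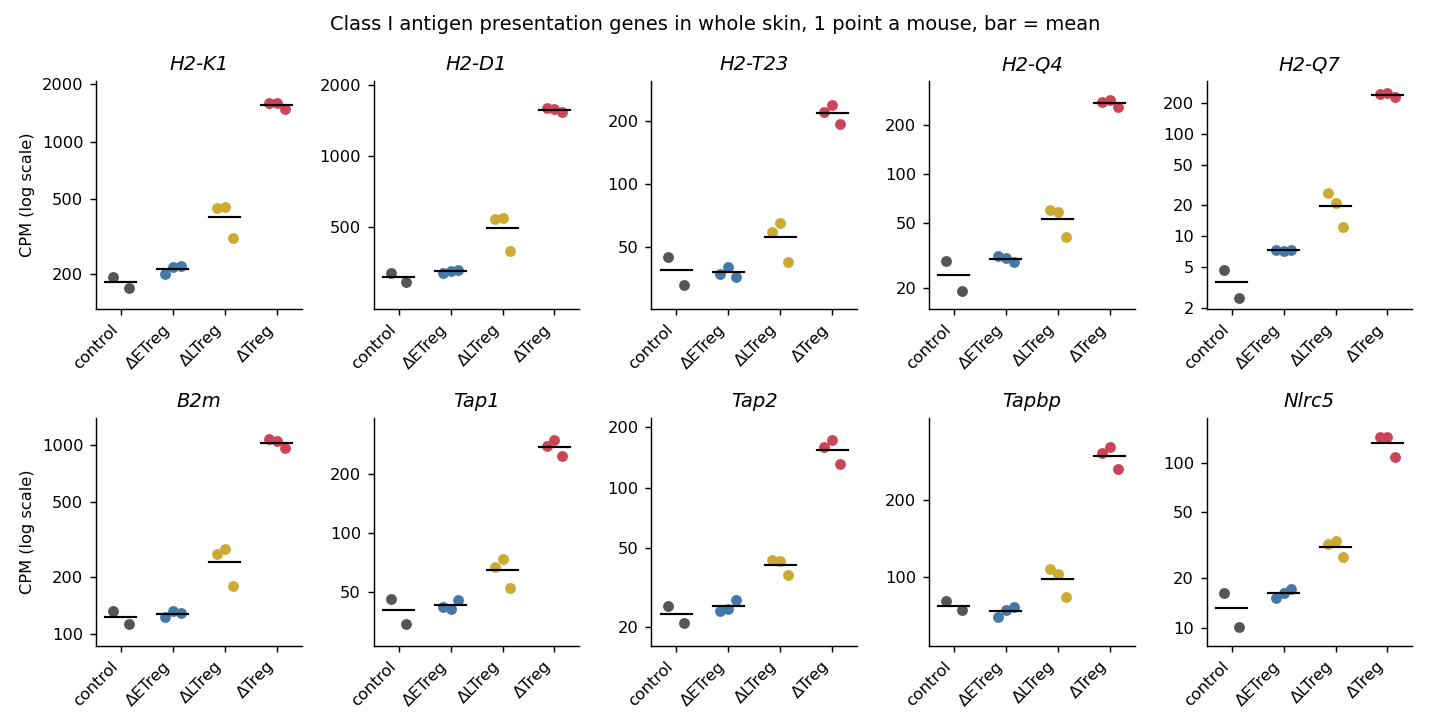
CPM (log axis) of the 10 genes in each of the 11 libraries, by group, with 1 point a mouse and a bar at the group mean. For every gene the 3 ΔTreg mice lie above all other mice, the ΔLTreg mice come next (for H2-T23, 1 of them lies below a control mouse), and ΔETreg mice lie close to or among the 2 control mice.

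H2-K1 and H2-D1 encode the classical heavy chains, which present peptides to CD8 T cells. H2-K1 was measured at 193 and 170.2 CPM in the 2 control libraries, at 201, 219.9 and 220.1 CPM in ΔETreg, at 446, 450.1 and 312 CPM in ΔLTreg, and at 1604, 1589.9 and 1490.4 CPM in ΔTreg libraries. No 2 groups overlapped, although ΔETreg mice lay just above control. H2-K1 rose 8.60-fold in ΔTreg against control (log2 fold change 3.10 ± 0.156 SE, n = 3 and 2, adjusted p = 1.42e-06, edgeR) and 2.22-fold in ΔLTreg (1.148 ± 0.142, adjusted p = 0.00172, edgeR), while the ΔETreg difference of 1.18-fold did not pass the test (adjusted p = 1, edgeR). H2-D1 began higher and rose less. It was at 321 and 293 CPM in control, 321, 327 and 329.8 CPM in ΔETreg, 540.3, 545 and 397 CPM in ΔLTreg and 1593, 1577 and 1529.6 CPM in ΔTreg libraries. The ΔETreg values lay at or just above the higher control value, within overlap, and both of the other groups lay above them. The rise of H2-D1 was 5.10-fold in ΔTreg (adjusted p = 1.63e-06, edgeR) and 1.61-fold in ΔLTreg skin (adjusted p = 0.0104, edgeR). Control skin thus held more H2-D1 than H2-K1 reads, and ΔTreg skin held nearly equal numbers.

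The other heavy chains are non-classical, with few alleles and specialised readers. H2-T23 encodes Qa-1, which shows leader peptides of other class I chains to the NKG2 receptors of natural killer cells. It was at 44.5 and 32.6 CPM in control, 36.9, 40.1 and 35.9 CPM in ΔETreg, 59.0, 64.9 and 42.3 CPM in ΔLTreg and 219.6, 239 and 194 CPM in ΔTreg libraries. Control mouse 1 lay above ΔLTreg mouse 3, so these groups overlapped, and only the ΔTreg mice stood clear. H2-T23 was 5.64-fold higher in ΔTreg skin (adjusted p = 9.56e-06, edgeR) and 1.43-fold higher in ΔLTreg skin, which did not pass the test (adjusted p = 0.121, edgeR). Without ΔLTreg mouse 3, which stood apart, the H2-T23 difference passed (log2 fold change 0.68, adjusted p = 0.0175, edgeR).

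H2-Q4 and H2-Q7 belong to the Q cluster, and H2-Q7 encodes Qa-2, a heavy chain with a lipid-anchored form. H2-Q4 was at 29.0 and 19.2 CPM in control, 31.2, 30.5 and 28.9 CPM in ΔETreg, 59.5, 58.5 and 41.0 CPM in ΔLTreg and 276, 285 and 255 CPM in ΔTreg libraries. H2-Q7 was low in control skin, at 4.66 and 2.51 CPM (133 and 63 reads). It was at 7.38, 7.23 and 7.37 CPM in ΔETreg, 26.4, 21.1 and 12.4 CPM in ΔLTreg and 246, 253 and 228 CPM in ΔTreg libraries. For H2-Q7 each group lay wholly above the one before. H2-Q4 rose 11.3-fold in ΔTreg (adjusted p = 1.63e-06, edgeR) and 2.20-fold in ΔLTreg skin (adjusted p = 0.00653, edgeR). H2-Q7 rose 66.8-fold in ΔTreg (log2 fold change 6.06 ± 0.327 SE, n = 3 and 2, adjusted p = 1.63e-06, edgeR) and 5.51-fold in ΔLTreg skin (adjusted p = 0.00186, edgeR). In ΔETreg skin it was 2.02-fold higher with an adjusted p of 1 in edgeR, but it passed with DESeq2 (adjusted p = 0.0488) and where no filter on low counts was applied (adjusted p = 5.37e-06, edgeR).

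Heavy chain genes of the Q and T clusters resemble each other, so reads may be shared out wrongly among them. Of the 150-base windows in H2-Q7 transcripts, 5.90% also occur in transcripts of other genes, namely H2-Q10, H2-Q6 and H2-Q5, against 1.35% for H2-D1, 0.331% for H2-T23 and 0 for H2-K1 and H2-Q4. Summing H2-Q6 and H2-Q7 gave a log2 fold change of 6.40 in ΔTreg against control, and summing all 8 H2-Q genes of the table gave 4.60 (adjusted p = 1.74e-06, edgeR). Of H2-Q6 to H2-Q9, only H2-Q6 and H2-Q7 were found by symbol among the genes counted.

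B2m encodes β2-microglobulin, the light chain that every class I heavy chain needs to reach the surface. It was at 132 and 112 CPM in control, 123, 132 and 129 CPM in ΔETreg, 264, 280.3 and 178 CPM in ΔLTreg and 1069.7, 1043 and 965 CPM in ΔTreg libraries. The ΔETreg and control mice overlapped, and the ΔLTreg and ΔTreg mice each lay above them. B2m rose 8.403-fold in ΔTreg (adjusted p = 1.95e-06, edgeR) and 1.97-fold in ΔLTreg skin (adjusted p = 0.00773, edgeR).

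Tap1 and Tap2 encode the chains of the peptide transporter. Tap1 was at 46.4 and 34.5 CPM in control, 41.8, 41.15 and 45.5 CPM in ΔETreg, 67.4, 73.9 and 52.6 CPM in ΔLTreg and 279, 299 and 247 CPM in ΔTreg libraries. Tap2 was at 25.5 and 20.9 CPM in control, 24.1, 24.8 and 27.5 CPM in ΔETreg, 43.6, 42.7 and 36.3 CPM in ΔLTreg and 161, 172 and 131 CPM in ΔTreg libraries. For both, control and ΔETreg mice overlapped, and the ΔLTreg and then the ΔTreg mice lay above them. In ΔTreg skin Tap1 rose 6.79-fold (adjusted p = 2.08e-06, edgeR) and Tap2 by 2.73 on the log2 scale (adjusted p = 1.42e-06, edgeR). In ΔLTreg skin the rises were 1.60-fold for Tap1 (adjusted p = 0.0326, edgeR) and 1.76-fold for Tap2 (adjusted p = 0.00697, edgeR).

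Tapbp encodes tapasin, which bridges the transporter and the empty heavy chain. It was at 80.6 and 74.4 CPM in control, 70.1, 74.5 and 76.9 CPM in ΔETreg, 108, 103 and 83.5 CPM in ΔLTreg and 306, 323 and 264 CPM in ΔTreg libraries. This was the smallest rise of the 10 in ΔTreg skin, 3.84-fold (adjusted p = 2.26e-06, edgeR). In ΔLTreg skin Tapbp was 1.27-fold higher, with all 3 mice above both control mice, but did not pass the test (adjusted p = 0.111, edgeR, and 0.021 without ΔLTreg mouse 3). Nlrc5, the transactivator, was at 16.3 and 10.08 CPM in control, 15.0, 16.3 and 17.1 CPM in ΔETreg, 32.2, 33.3 and 26.8 CPM in ΔLTreg and 144, 144 and 109 CPM in ΔTreg libraries. It rose 9.95-fold in ΔTreg (adjusted p = 2.27e-06, edgeR) and 2.32-fold in ΔLTreg skin (adjusted p = 0.00635, edgeR).

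The 10 calls in ΔTreg skin held under all alternatives and with any 1 mouse left out. Those in ΔLTreg skin depended on the tool and on the libraries fitted. With edgeR fitted to the ΔLTreg and control libraries alone, 2 of the 10 genes passed (H2-K1 and Tap2). DESeq2, run on those same libraries alone, called 8. Without control mouse 2 the number was 4, with H2-D1, B2m, Tap1 and Tap2 lost (adjusted p = 0.0818, 0.0728, 0.192 and 0.0653, edgeR), and without ΔLTreg mouse 3 it was 10. Tap1 was also lost without ΔLTreg mouse 1 or 2 (adjusted p = 0.0602 and 0.0583, edgeR). With 1 mouse left out the median log2 fold change of the 10 genes ranged from 0.77 to 1.035, and single genes moved further, as did H2-Q7 (2.10 to 2.99), Nlrc5 (0.91 to 1.61) and H2-T23 (0.31 to 0.76). Exons on the other strand cover 24.9% of the exon bases of Tapbp, 19.1% of those of H2-Q4 and up to 14.1% of those of Tap2, and whether reads were counted by strand is not given in the sources used here, so reads of these genes and of their antisense partners cannot be told apart.

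**Figure D2:**
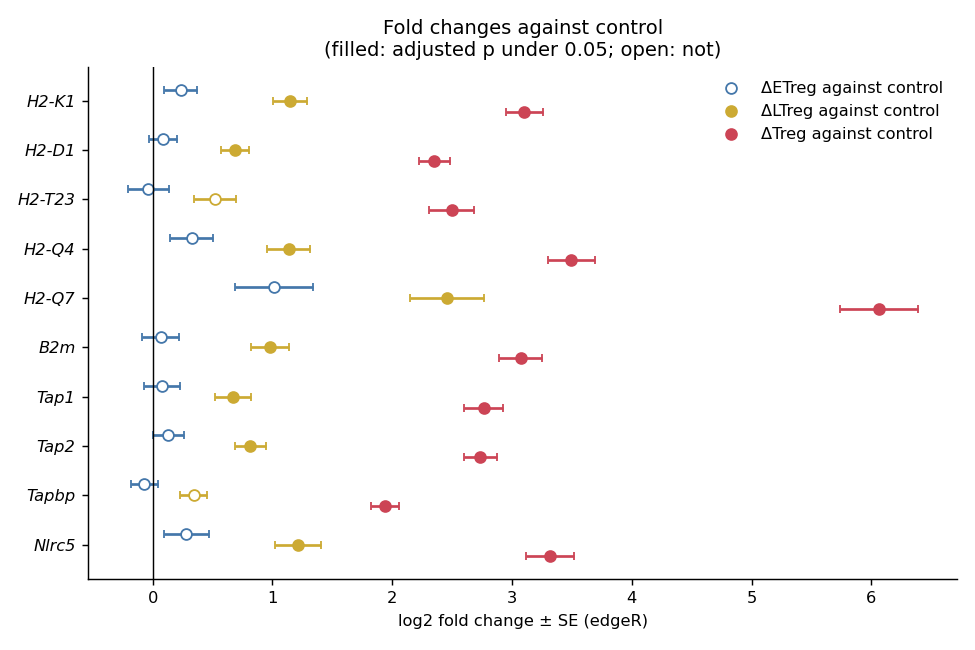
Log2 fold change against control (x axis, edgeR, bars ± 1 SE) of each of the 10 genes in ΔETreg, ΔLTreg and ΔTreg skin, with filled points for adjusted p under 0.05 and open points for the rest. All ΔTreg points are filled and lie from 1.94 to 6.06, ΔLTreg points lie from 0.34 to 2.46 with H2-T23 and Tapbp open, and all ΔETreg points are open.

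ΔTreg and ΔLTreg mice were sampled on the same day after the same late injections and differ by the early course alone, so this pair asks what the early course adds. All 10 genes were higher in ΔTreg than in ΔLTreg skin, from 3.03-fold (Tapbp) to 12.1-fold (H2-Q7), with a median log2 fold change of 2.03, while 10.7% of all genes rose. Values of the 10 genes lay wholly higher in ΔTreg than in ΔLTreg libraries, as did those of 19.2% of all genes, and the highest adjusted p of the 10 was 1.35e-05 (edgeR, H2-T23). Against ΔETreg skin, sampled 4 days earlier, all 10 were again higher in ΔTreg mice, where 13.2% of all genes rose, with a median log2 fold change of 2.78. Between the single courses, 9 of the 10 were higher in ΔLTreg than in ΔETreg skin, against 3.12% of all genes. The exception was H2-T23 (1.47-fold, adjusted p = 0.0572, edgeR), and the largest difference was that of H2-Q7 (2.73-fold, adjusted p = 0.00718, edgeR). With 1 mouse left out 6 to 10 passed: Tap1 and Tapbp were lost without any 1 of the ΔETreg mice and without ΔLTreg mouse 1 or 2, H2-Q4 without ΔETreg mouse 2 or 3, and H2-T23 passed without ΔLTreg mouse 3 (adjusted p = 0.00755, edgeR). Sampling day and DT course differ together in both of these comparisons and cannot be told apart.

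The 4 groups cross the early with the late course, so the effect of both can be set against the sum of the single effects. For H2-K1 the ΔETreg and ΔLTreg log2 fold changes summed to 1.38, and that of ΔTreg skin was 3.10. The excess was 1.72 ± 0.183 SE (adjusted p = 0.000759, edgeR). For Nlrc5 the sum was 1.496, the ΔTreg value 3.315 and the excess 1.82 ± 0.244 (adjusted p = 0.00215, edgeR). All 10 genes exceeded the sum and passed this test, by 1.58 (H2-D1) to 2.59 (H2-Q7) on the log2 scale or 2.99-fold to 6.01-fold, while 4.65% of all genes did so in this direction. The excess of H2-Q7 did not pass without control mouse 1 (2.06, adjusted p = 0.0852, edgeR). The ΔETreg mice were 4 days younger than the other DT mice, so the time from the early course to sampling differed as well. With no ΔETreg mice sampled on day 13, a late response to the early course cannot be told apart from an effect of both courses. The sampling day of the control mice is not given, so this excess may hold a change with age too.

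**Figure D3:**
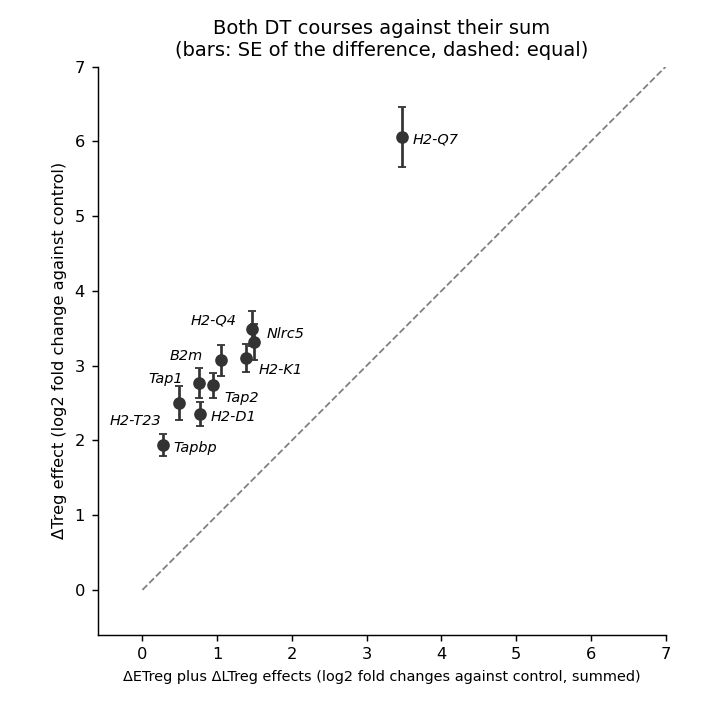
For each of the 10 genes, the log2 fold change of ΔTreg against control skin (y axis) is plotted over the sum of the ΔETreg and ΔLTreg log2 fold changes against the same 2 control libraries (x axis). Bars are ± 1 SE of the difference between the 2 quantities, and all points lie above the dashed line of equality, by 1.58 to 2.59.

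Levels of different genes were set side by side after counts were divided by exon length. That length takes all annotated exons of a gene together and is not that of the transcript expressed. The order between genes therefore also rests on the annotation. In CPM per kilobase of exon, control skin held most B2m (142 ± 16.8, SD, n = 2), then H2-D1 (119 ± 7.72), H2-K1 (61.8 ± 5.50), Tapbp (21.4 ± 1.196) and H2-T23 (13.3 ± 2.92). H2-Q4 (9.27 ± 2.67), Tap1 (7.38 ± 1.53) and Tap2 (6.14 ± 0.857) followed, each overlapping its neighbour in this order, and Nlrc5 (1.55 ± 0.520) and H2-Q7 (0.840 ± 0.356) came last. ΔTreg skin kept B2m (1193 ± 63.0, n = 3), H2-D1 (607 ± 12.8) and H2-K1 (531 ± 21.1) at the head, but H2-Q4 (104.8 ± 5.90) now came ahead of Tapbp, and H2-Q7 (56.9 ± 3.00) ahead of Tap1. Tapbp (82.0 ± 8.36) overlapped H2-T23 (75.3 ± 7.77) there, and H2-Q7 overlapped Tap1 (50.2 ± 4.84), which overlapped Tap2 (40.9 ± 5.56). Nlrc5 (15.5 ± 2.38) was last.

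The mixture of heavy chains shifted with it. Over the 26 class I heavy chain genes of the H2 region in the table, taken as reads per kilobase, H2-D1 made up 54.6% ± 1.38 (SD, n = 2) of the control total. Its share was 52.0% ± 0.513 for ΔETreg, 47.7% ± 1.01 for ΔLTreg and 39.0% ± 0.767 for ΔTreg mice (n = 3 each). H2-K1 went from 28.3% in both control libraries to 34.1% ± 0.198 in ΔTreg skin. Some chains of the Q cluster took up more of the total and H2-Q1, H2-Q2 and H2-Q10, each under 0.1% of it, took up less. H2-Q7 went from 0.379% ± 0.129 to 3.65% ± 0.0674 of the total, H2-Q4 from 4.21% ± 0.844 to 6.73% ± 0.143, and H2-Q6, the close relative of H2-Q7, from 0.305% ± 0.0318 to 5.54% ± 0.103. In reads, ΔTreg libraries held more H2-Q7 (5732, 8534 and 7389) than H2-Q6 (4369, 6130 and 5489). The order of these shares thus rests on the annotated exon lengths. H2-T23 took 6.08% ± 0.790 in control and 4.83% ± 0.338 in ΔTreg skin. The shares of control and ΔTreg mice did not overlap for H2-D1, H2-K1, H2-T23, H2-Q4, H2-Q6 or H2-Q7, and those of H2-Q2 did. Lack of overlap is common with 2 and 3 mice: the CPM of 52.5% of all genes tested did not overlap between these groups. No test was run on the shares.

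**Figure D4:**
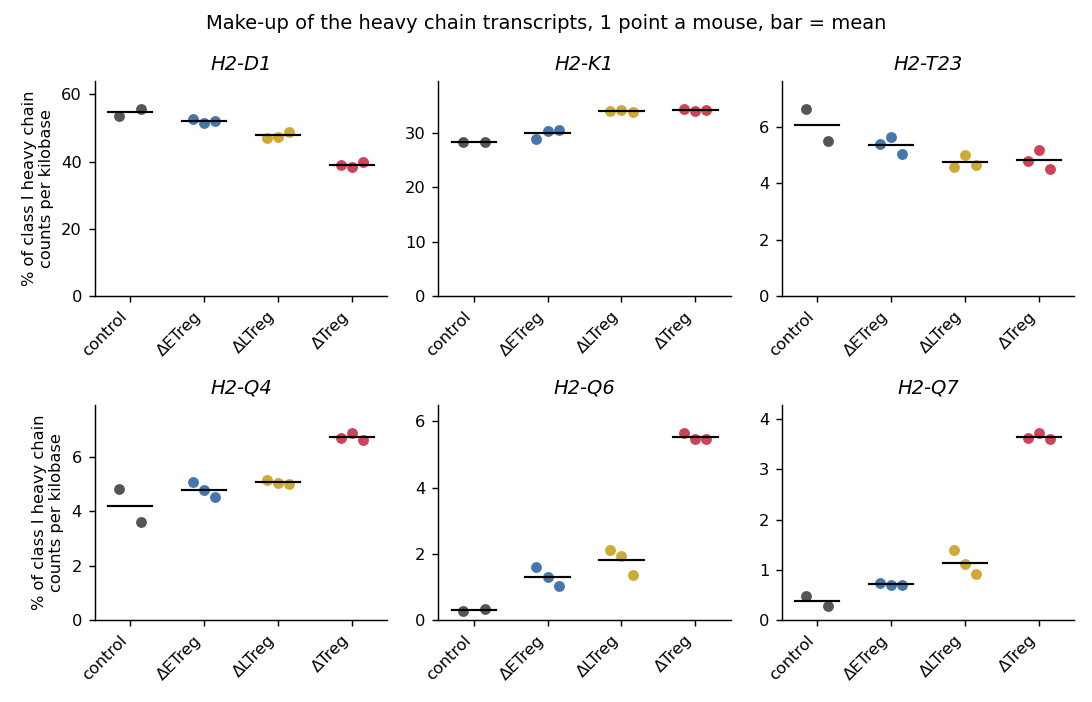
Share of each of 6 heavy chain genes (y axis, percent of the counts per kilobase of 26 class I heavy chain genes) in each library by group, 1 point a mouse, bar at the group mean, each panel with its own axis from 0. H2-D1 goes from 54.6% to 39.0% between control and ΔTreg skin, while H2-Q4, H2-Q6 and H2-Q7 reach 6.73%, 5.54% and 3.65%.

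Set against B2m within each library, where the scaling of libraries cancels, the log2 ratio of H2-Q7 to B2m was 3.04 higher in ΔTreg than in control skin and that of H2-Q4 was 0.45 higher. The ratios of Tapbp, H2-D1, H2-T23 and Tap1 to B2m were lower, with differences of -1.14, -0.72, -0.57 and -0.30. None of these 6 ratios overlapped between the groups (two-sided exact permutation p = 0.1 each, the smallest that 3 against 2 mice allow, and 0.15 after adjustment over 9 ratios). The ratio of Tap2 to B2m differed by -0.34, also without overlap (exact permutation p = 0.2). Those of H2-K1 and Nlrc5 overlapped, with differences of 0.03 (exact permutation p = 0.4) and 0.27 (exact permutation p = 0.3).

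Other class I heavy chain genes of the region rose with the members. Of 11 tested genes of a list of 24, 9 rose in ΔTreg skin (median log2 fold change 2.22, where 12.1% of all genes rose) and 5 in ΔLTreg skin. H2-Q6 was counted 39 and 35 times in control libraries, 122 to 226 times in ΔETreg, 284 to 662 in ΔLTreg and 4369 to 6130 times in ΔTreg libraries, and it rose 129.8-fold in ΔTreg (adjusted p = 1.51e-06, edgeR) and 11.2-fold in ΔLTreg skin (adjusted p = 0.000876, edgeR). Its ΔETreg value, 4.81-fold, did not pass (adjusted p = 0.359, edgeR), nor did that of H2-Q5, 4.75-fold (adjusted p = 0.679, edgeR). In ΔETreg skin edgeR called 0 of the 11 genes, with 2 at an unadjusted p under 0.05, and DESeq2 called 2. H2-Q5 was counted 9 and 8 times in control and 855 to 1153 times in ΔTreg libraries, with a log2 fold change of 6.76 ± 0.378. In ΔLTreg skin H2-Q5, H2-T10, H2-M2 and H2-T22 also rose, by 3.51, 1.69, 1.18 and 0.65 on the log2 scale. Without control mouse 1 or without control mouse 2, H2-T10 and H2-T22 did not pass there (adjusted p from 0.0708 to 0.164, edgeR), nor did H2-M2 without control mouse 1 (adjusted p = 0.0555, edgeR) or H2-T22 without ΔLTreg mouse 1 or 2. Class I-like genes that do not present ordinary peptides had smaller values: of 4 tested, Hfe, which takes part in iron control (2.03-fold), and Fcgrt, the neonatal Fc receptor (1.71-fold), rose in ΔTreg skin, while Cd1d1, which shows lipids to natural killer T cells, was 1.28-fold higher without passing (adjusted p = 0.435, edgeR). The Fcgrt call was lost with either control mouse left out (adjusted p = 0.0621 and 0.0758, edgeR).

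Along the path that feeds peptides to class I, the immunoproteasome rose against control and the constitutive subunits did not pass there. All 5 genes of a list of immunoproteasome subunits and proteasome activators rose in ΔTreg skin, with a median log2 fold change of 2.40. Psmb9 and Psmb8, catalytic subunits coded beside Tap1 and Tap2, rose 13.9-fold and 10.42-fold there and 2.40-fold and 1.89-fold in ΔLTreg skin (adjusted p = 0.00216 and 0.0309, edgeR), and Psmb10 rose 5.28-fold in ΔTreg skin. The ΔLTreg call of Psmb8 was lost with any 1 control mouse or with ΔLTreg mouse 1 or 2 left out (adjusted p from 0.0548 to 0.178, edgeR). The subunits they replace, Psmb5, Psmb6 and Psmb7, had log2 fold changes of -0.03, -0.07 and -0.04 against control (0 of 3 called by edgeR or DESeq2). Against ΔLTreg skin, sampled on the same day, 2 of these 3 fell in ΔTreg skin (median log2 fold change -0.23), where 6.11% of all genes fell. Of 10 chaperones and enzymes of the endoplasmic reticulum, 2 rose: Erap1, the aminopeptidase that trims peptides (2.26-fold, adjusted p = 1.11e-06, edgeR), and Tapbpl, a relative of tapasin (1.97-fold, adjusted p = 0.000319, edgeR). Calr, the chaperone calreticulin, was 1.12-fold higher without passing (adjusted p = 0.146, edgeR). Of 6 tested cytosolic peptidases 1 rose, Npepps (log2 fold change 0.22, adjusted p = 0.00609, and 0.0644 without control mouse 2, edgeR), and Thop1 and Tpp2 had values of -0.17 and 0.08 that did not pass.

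In ΔTreg skin 2 of 8 factors that bind class I promoters together with NLRC5 passed. The share of all genes that passed there in either direction was 21.5%. Of 8 genes of this set, Rfx5 rose (log2 fold change 0.22, adjusted p = 0.0349, edgeR) and Creb1 fell (log2 fold change -0.23, adjusted p = 0.00915, edgeR), while Nfya had a value of -0.15 (adjusted p = 0.0712, edgeR). The Rfx5 call was lost with DESeq2 (adjusted p = 0.232) and without either control mouse, and the Creb1 call without control mouse 1 (adjusted p = 0.0555, edgeR). Of 17 genes of interferon and NF-κB signalling, 15 rose in ΔTreg skin, among them Irf1 (10.6-fold) and Stat2 (4.355-fold). In ΔLTreg skin Irf1 rose 2.13-fold (adjusted p = 0.0365, edgeR). That ΔLTreg call was lost with either control mouse left out (adjusted p = 0.109 and 0.191, edgeR). Ifng, which encodes interferon-γ, was counted 3 and 0 times in control, 3, 0 and 0 times in ΔETreg, 1, 4 and 0 times in ΔLTreg and 54, 82 and 57 times in ΔTreg libraries. It was the only gene of 6 interferon genes with enough reads to test, and it rose in ΔTreg skin (adjusted p = 0.000769, edgeR). At these depths its transcript was at or near the limit of 3 reads in ΔLTreg libraries, where Irf1 and 8 of the 10 class I genes rose. Whether interferon-γ had a part in the ΔLTreg values was not tested.

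MHC class II genes, whose transactivator is Ciita and which serve CD4 T cells, were a related group with a smaller median. Of 9 tested, 8 rose in ΔTreg skin (median log2 fold change 1.202) and 0 in ΔLTreg skin by edgeR and by DESeq2, where 3 of the 9 had an unadjusted p under 0.05. With no filter on low counts 3 of them rose in ΔLTreg skin, and with 1 mouse left out up to 2. Cd74, the invariant chain, rose 2.62-fold in ΔTreg skin, H2-Eb1, a class II β chain, 2.35-fold and H2-DMb2, part of the peptide editor, 3.345-fold. Whether the class I and class II changes differ was not tested.

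Genes of the cells that read class I, and of other leukocytes, moved with the members in ΔTreg skin. All 7 tested genes of a list of CD8 chains, natural killer cell receptors, Pirb and Lilrb4a rose there. Cd8a, part of the CD8 co-receptor, was counted 0 and 2 times in control libraries, 0 to 3 times in ΔETreg and ΔLTreg libraries and 238, 236 and 296 times in ΔTreg libraries. Cd8b1, its partner, was counted at most 1 time in every other library and 107 to 125 times in ΔTreg libraries. Klrc1, a receptor chain for Qa-1, was counted 0 and 3 times in control, 7 to 14 times in ΔLTreg and 51 to 83 times in ΔTreg libraries. Of the marker lists, 6 of 6 pan-leukocyte, 7 of 7 T cell, 6 of 6 cytotoxic lymphocyte, 4 of 6 macrophage, 5 of 5 tested neutrophil and 2 of 6 dendritic cell markers rose in ΔTreg skin. The summed pan-leukocyte markers went from 90.9 to 122 CPM in control to 267 to 380.2 CPM in ΔTreg libraries, and the cytotoxic markers from 3.27 to 3.29 CPM to 58.7 to 65.8 CPM. Of the keratinocyte, fibroblast and melanocyte markers, 2 of 6, 3 of 6 and 4 of 4 fell in ΔTreg skin, as did 1 of 6 dendritic and 2 of 4 endothelial markers, while 1 keratinocyte, 1 endothelial and 1 of 4 muscle markers rose and the 1 B cell marker tested did not pass. Of all genes, 9.39% fell there. In either direction DESeq2 called 6 of 6 keratinocyte, 4 of 6 fibroblast, 3 of 4 muscle and 6 of 6 macrophage markers, against 3, 3, 1 and 4 in edgeR. How far added leukocytes account for the class I values in ΔTreg skin was not tested.

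The same lists were read in ΔLTreg skin, where 4.55% of all genes passed in edgeR in either direction. There 20.2% of all genes had an unadjusted p under 0.05. Of the 31 pan-leukocyte, T cell, cytotoxic, macrophage and dendritic cell markers, 0 passed there in edgeR, 6 had an unadjusted p under 0.05 and DESeq2 called 1, while 1 of 5 neutrophil markers rose by edgeR and 0 by DESeq2. Pan-leukocyte markers summed to 97.3, 124 and 66.1 CPM in the 3 ΔLTreg libraries, against 122 and 90.9 CPM in control, and macrophage markers to 106, 159 and 58.3 CPM against 151 and 129 CPM. The 10 class I genes summed to 1646, 1673 and 1182 CPM in those libraries, against 893 and 769 CPM in control. Library 3, the lowest for pan-leukocyte markers, was thus above both control libraries for class I. T cell markers summed to 18.9 to 23.4 CPM in ΔLTreg and 14.0 to 18.2 CPM in control libraries, and cytotoxic markers to 4.10 to 5.88 CPM and 3.27 to 3.29 CPM, which did not overlap. Muscle markers, of which 1 of 4 rose, summed to 2833, 1143 and 3697 CPM in ΔLTreg libraries against 987 and 1062 CPM in control, while 1 of 4 endothelial markers rose and 1 of 6 keratinocyte and 1 of 6 fibroblast markers fell. DESeq2 called 3 of the 6 keratinocyte markers there, and 0 of the endothelial and fibroblast markers. The part of these differences in the class I values was not tested.

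**Figure D5:**
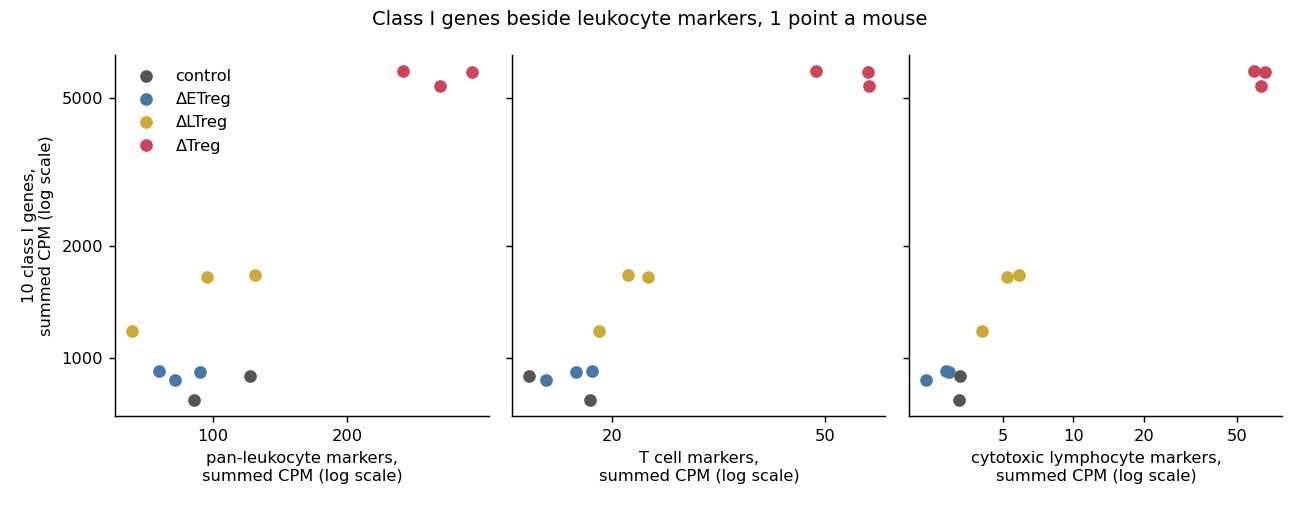
Summed CPM of the 10 class I genes (y axis) over the summed CPM of pan-leukocyte, T cell and cytotoxic lymphocyte markers (x axes, all axes on log scales), 1 point a mouse. ΔTreg mice are highest on every axis, and ΔLTreg mice lie above control for class I (1182 to 1673 against 769 to 893 CPM) while their pan-leukocyte sums, 66.1 to 124 CPM, span those of control.

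Across the 11 libraries each member followed the mean of the other 9 closely (Pearson r from 0.988 for Tapbp to 0.999 for H2-Q4, on log2 CPM). Outside all lists used here, the 8 genes of 14820 candidates whose log2 CPM was most like the members' mean were Cxcl10, Tbk1, Cxcl9, Dtx3l, Fcgbp, Parp9, Irgm1 and Cd274, with r from 0.992 (Cd274) to 0.994 (Cxcl10). Cxcl9 and Cxcl10 encode chemokines that attract T cells, Irgm1 an interferon-inducible GTPase and Cd274 the checkpoint ligand PD-L1. Cxcl9 was 7.12 and Tbk1, a kinase of innate signalling, 0.47 higher on the log2 scale in ΔTreg than in control skin, so genes alike in order differed in size. These correlations are descriptions over 4 groups of mice, in which the 3 ΔTreg libraries lie far from the rest, and by rank correlation only 1 of the 8 genes would be named.

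Nearness on chromosome 17 was looked at because 8 members share the region. Between the outermost members, 106 other tested genes lie that are in none of the class I, class II or immunoproteasome lists. Of these 33 rose and 5 fell in ΔTreg skin (31.1% and 4.72%, against 12.1% and 9.39% of all genes), with a median log2 fold change of 0.13, and 3 rose in ΔLTreg skin (2.83%, against 1.86% of all genes). In either direction DESeq2 called 24 of them in ΔTreg skin, and with 1 mouse left out edgeR called 15 to 29. Among the 33 were Gm20496, Gm15821 and Gm11131, which overlap exons of Tap2 or H2-Q4 on the other strand. Their reads cannot be told apart from those of the members. The largest rises were those of Ltb (log2 fold change 3.07), Gm20496 (3.02) and C4b (2.99). Whether position had a part was not tested. B2m and Nlrc5, on other chromosomes, rose within the range of the members on chromosome 17.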

How the data were processed

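Whole skin RNA of 11 Foxp3-DTR mice was sequenced in bulk. Per the submitters' processing notes, Trimmomatic 0.36, STAR 2.5.2b and featureCounts of Subread 1.5.2 were used with GRCm38. The annotation release and the strand setting are not given in the sources used here. The authors deposited raw read counts per gene, with no normalization.

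Groups were taken from the treatment label. Counts were tested with edgeR 4.0.16 (R 4.3.3) by quasi-likelihood on TMM-scaled libraries after filterByExpr, in 1 fit of 4 group means, with Benjamini-Hochberg adjustment over 18375 genes and a threshold of 0.05. CPM use TMM-scaled library sizes, and log2 CPM a prior count of 2. The fit was tested on simulated data. All comparisons with control share the same 2 libraries. Between replicates, the median per-gene chi-square was 0.988 to 3.24, against 0.455 for counting error alone, so no pair of libraries was merged.

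The members and lists were chosen with earlier results of these data known. From each other list, the 3 genes with the smallest p in ΔTreg against control were named, with any called in ΔETreg or ΔLTreg, and 8 genes were named for likeness. 1 gene named by this rule is not reported here. Sequences are from RefSeq (GRCm38.p6). DESeq2 1.42.0, other normalizations and filters, sva 3.50.0, the sex of the mice (from Xist and Ddx3y counts), summed similar genes and each mouse left out were tried as alternatives.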

Additional observations from a re-analysis of the deposited data

Results flagged for a closer look

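The difference between ΔTreg and ΔLTreg skin exceeded that between ΔETreg and control skin, as tested by the interaction in edgeR over all 11 libraries. On the log2 scale the excess of ΔTreg over the sum of the single courses was 1.72 for H2-K1, 1.58 for H2-D1, 2.01 for H2-T23, 2.035 for H2-Q4 and 2.59 for H2-Q7. It was 2.025 for B2m, 2.01 for Tap1, 1.79 for Tap2, 1.67 for Tapbp and 1.82 for Nlrc5. Adjusted p ranged from 0.000388 (Tapbp) to 0.00399 (H2-Q7, edgeR), and 4.65% of all genes passed in the same direction. ΔETreg mice were sampled on day 9 and the other DT mice on day 13, so the time since the early course differed too. A late response to the early course therefore cannot be told apart from an effect of both courses. The sampling day of the control mice is not given, so a change with age cannot be told apart either. Groups of 2 or 3 mice were not screened for outlying samples.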

How the results depend on the processing

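The 10 calls in ΔTreg against control, ΔLTreg and ΔETreg skin were kept under every alternative run. With 1 mouse left out, members called ranged from 4 to 10 in ΔLTreg against control. From the libraries of those groups alone edgeR called 2, and DESeq2 called 8. In ΔETreg skin DESeq2 and the fit with no filter each called 1. Tap1 was also lost in ΔLTreg skin with a surrogate variable (adjusted p = 0.0583, edgeR). ΔETreg log2 fold changes near 0 changed sign: H2-T23 was 0.0017 by library size only and 0.034 with sex as a covariate. With 1 mouse left out the ranges were -0.24 to 0.21 for H2-T23, -0.051 to 0.19 for B2m, -0.12 to 0.31 for Tap1, -0.0047 to 0.28 for Tap2 and -0.020 to 0.68 for Nlrc5. The cause was not tested.

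Calls in the other lists depended more on the setting. In ΔTreg skin the promoter-binding factors gave 1 call with DESeq2, the libraries of the 2 groups, library size only, no filter and a surrogate variable, and 0 to 2 with 1 mouse left out. Cytosolic peptidases gave 2 with the 2 groups and 0 to 1 with 1 mouse left out, class I-like genes 1 to 2 with 1 mouse left out, and interferon genes 0 and receptors 2 where every library had at least 10 counts. In ΔLTreg skin, edgeR on the 2 groups alone gave 2 calls of other class I genes, 1 of the immunoproteasome, 0 of signalling and 0 of the chromosome 17 genes. No filter gave 4 of signalling, 3 of class II, 1 of receptors and 8 of chromosome 17. A surrogate variable gave 1 of the immunoproteasome and 2 of chromosome 17, as did library size only for the latter. With 1 mouse left out the ranges there were 2 to 5 (other class I), 1 to 3 (immunoproteasome), 0 to 3 (signalling), 0 to 2 (class II), 0 to 1 (receptors) and 0 to 4 (chromosome 17). For the chromosome 17 genes in ΔTreg skin they were 15 to 29, and DESeq2 gave 24.

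With 1 mouse left out, the ΔTreg log2 fold change ranged from -0.136 to 0.064 for Psmb5, -0.191 to 0.046 for Psmb6 and -0.119 to 0.024 for Psmb7, and the log2 ratio to B2m in ΔTreg against ΔLTreg skin from -0.070 to 0.044 for Tap1 and from -0.088 to 0.081 for Nlrc5. No paired analysis was possible because the labels give no replicate numbers.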
